A study of Solenopsis invicta with 3 samples.

Results

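Fire ant workers (*Solenopsis invicta*) of the most distant classes in the study were compared here through the RNA of their antennae. Workers heterozygous for the social supergene from polygyne colonies (*SB/Sb*, hereafter P_Bb) were set against *SB/SB* workers from monogyne colonies (M_BB), so that supergene genotype and social form both differed. The comparison used 2 of the 3 RNA-Seq libraries of the series, chosen by the colony type and genotype in their labels. The third library, from polygyne *SB/SB* workers (P_BB), was used to cut each difference into a genotype step (P_Bb over P_BB) and a social form step (P_BB over M_BB), which add up to the whole difference on the log2 scale. Of the 19703 entries of the expression tables, 9260 had a mean of at least 10 normalized counts over the 3 libraries and were compared. All workers were foragers taken from the colonies, and the labels name no treatment. Each library mixed separately amplified antennal cDNA of 4 colonies. Both polygyne pools drew on the colonies Rui9, Gui3, Bang3 and Bo5, and the M_BB pool on Rui7, Zhuang3, Tan1 and Rui1, so in the social form step social form and colony cannot be told apart. No class had a replicate library, so no test was possible, and everything below describes these libraries.

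The supergene of the fire ant is a stretch of a chromosome that is inherited as a block, with the variants *SB* and *Sb*. Monogyne colonies have a single queen and hold only *SB/SB* workers, whereas polygyne colonies have several queens and hold workers of both genotypes. *Sb*-bearing workers discriminate among queens, presumably by chemicals on the cuticle of the queens. Ants smell with their antennae. Odorant binding proteins carry odorants through the fluid of the sensory hairs, odorant receptors in the membrane of olfactory neurons respond to them, and metabolizing enzymes make or clear cuticular and odorant lipids. No nucleotide or protein sequence is shown, since none was used here.

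Depth was similar, with 3351500 expected counts in all in P_Bb, against 3421923 in P_BB and 3948464 in M_BB. The tissue label was checked with the odorant receptor entries (SiOR), which are characteristic of antennae: counts above 0 were recorded for 444 of 473 of them in P_Bb, against 447 in P_BB and 440 in M_BB. An expected count is RSEM's estimate of the reads from an entry, and a normalized count is that number divided by the library's upper-quartile size factor. Ratios of single entries are given with the 95% Clopper-Pearson interval of their counts, which compares 2 libraries and covers counting error only. Fewer cells of a type and less RNA per cell cannot be told apart in such pools.

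An entry was called where its log2 ratio, computed with 1 count added to each normalized count, was at least 2-fold. Between P_Bb and M_BB 406 of the 9260 entries (4.38%) were called, of which 197 (2.13%) were higher in P_Bb and 209 (2.26%) lower. The social form step on its own reached 2-fold in 384 entries (4.15%) and the genotype step in 279 (3.01%). The median difference over all entries compared was 0.03 on the log2 scale, and the central 90% lay between -0.71 and 0.71.

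Most calls came from weak entries. The share called was 18.4% at mean counts of 10 to 20, 7.66% at 20 to 50, 2.13% at 50 to 100, 0.648% at 100 to 500 and 0.475% at 500 or more. Of the 406 called entries 344 had a mean under 50, and for 346 of the 406 the interval of the ratio excluded equality. The entries were called by the ratio of the same counts, so this is no separate support for the calls. The interval lay wholly beyond 2-fold in 72 entries (0.778%), 39 higher and 33 lower in P_Bb. The balance of direction also moved with abundance: below a mean of 20, 115 entries were higher and 102 lower in P_Bb, whereas at 100 or more 8 were higher and 21 lower.

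**Figure D1:**
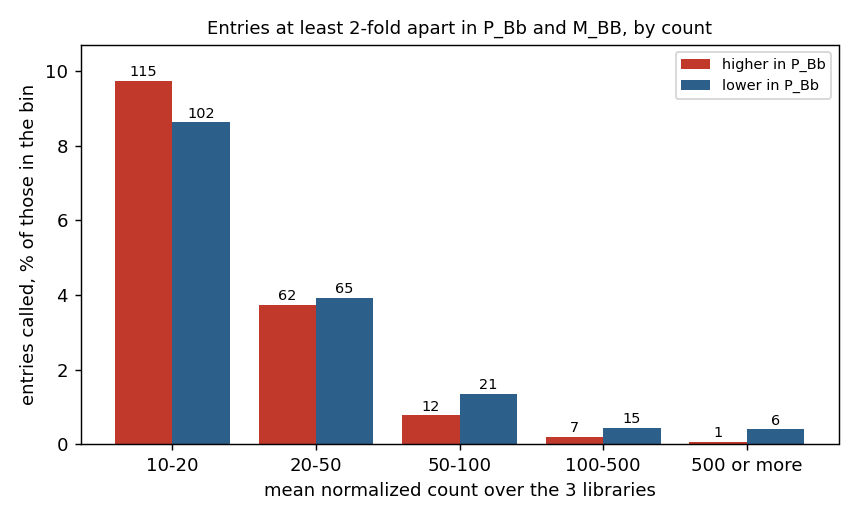
Share of compared entries called higher (red) or lower (blue) in P_Bb than in M_BB, in percent of the entries in each bin of mean normalized count, with the number of entries above each bar. Calls were dense in the bin of 10 to 20 counts (115 higher, 102 lower) and rare at 500 or more (1 higher, 6 lower).

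The split placed the difference more often in the social form step. Among the 406 entries, 144 were 2-fold apart in the social form step alone, 94 in the genotype step alone, 12 in both steps, and 156 in neither, so that 2 smaller steps added up to the call. P_BB lay between P_Bb and M_BB in 278 entries, the genotype step ran against the whole difference in 83, and the social form step did so in 43. The order of these classes turned round where weaker entries were let in: the genotype step alone was the more frequent without a filter (1070 against 946 entries) and with the deposited TPM at a mean of at least 1 (393 against 362), which changed the measure and the filter together. The steps share the P_BB library, so an error in its count lengthens one step and shortens the other. There were also 74 entries whose steps were both at least 2-fold but in opposite directions, with less than 2-fold left between P_Bb and M_BB.

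Among the entries with an interval beyond 2-fold, the directions differed in their steps. Of the 39 higher in P_Bb, 19 had the genotype step alone, 10 the social form step alone, 9 both and 1 neither. Of the 33 lower in P_Bb, 4 had the genotype step alone, 25 the social form step alone, 3 both and 1 neither. Without the limit on the interval the classes were more alike: 41 of the 197 entries higher in P_Bb and 53 of the 209 lower ones had the genotype step alone, and 73 and 71 had the social form step alone.

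**Figure D2:**
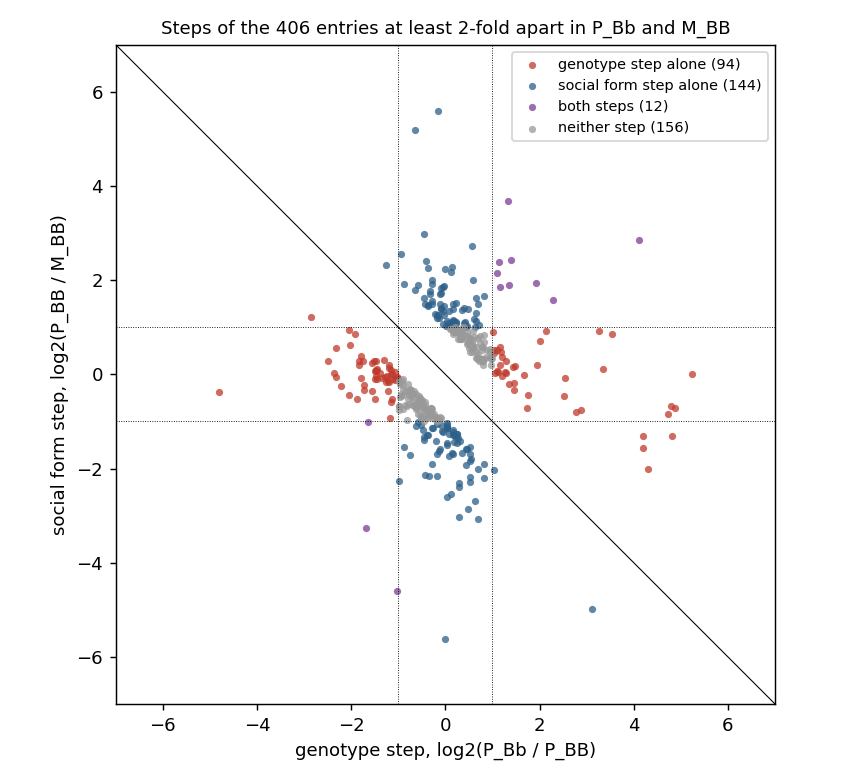
Genotype step, log2(P_Bb/P_BB), against social form step, log2(P_BB/M_BB), for the 406 entries called between P_Bb and M_BB. Dotted lines mark 2-fold and the diagonal marks no difference between P_Bb and M_BB. The 94 entries with the genotype step alone lie left and right, and the 144 with the social form step alone lie above and below. The 156 with neither step lie inside the dotted square, in its upper right and lower left corners.

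The best-counted part of the contrast was a set of 29 entries, with a mean of at least 100. They were 0.596% of the 4867 entries of that abundance. Of these, 21 were lower in P_Bb (0.431%) and 8 higher (0.164%). The 21 lower entries were 2.00 to 5.71 times as high in M_BB. In 20 of the 21 more than 50% of the difference lay in the social form step, 12 reached 2-fold in that step alone, 9 in neither, and 0 in the genotype step. The median share of the difference in the social form step was 84.9%.

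The most abundant of them was SINVm1_gene_05940, the tenth-ranked entry by TPM (RSEM's length-corrected measure of abundance) in P_Bb and the fourth-ranked in M_BB. It had 9832 normalized counts in P_Bb, against 12636 in P_BB and 22406 in M_BB, and took 0.275% of all counts in P_Bb, against 0.354% in P_BB and 0.631% in M_BB. The M_BB count was 2.28 times the P_Bb count (interval 2.23 to 2.33), with a genotype step of -0.36 and a social form step of -0.83. SINVm1_gene_13864 had 1196 normalized counts in P_Bb, against 1528 in P_BB and 6827 in M_BB. Its 5.71-fold difference (interval 5.36 to 6.09) was the largest of the 29, and it stood 234th by TPM in P_Bb and 30th in M_BB. Neither entry is annotated in the sources used here. SINVm1_gene_02165 had 1022 counts in P_Bb, against 1211 in P_BB and 2186 in M_BB. In these abundant entries P_BB lay nearer to P_Bb than to M_BB.

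3 of the 21 carry a predicted function in the study's list of differentially expressed genes, and all 3 were placed by their annotation in chemical metabolism. SINVm1_gene_14166, an acyl-delta desaturase-like entry, belongs to the enzymes that put double bonds into fatty acids. It had 199 normalized counts in P_Bb, against 128 in P_BB and 830.4 in M_BB, and was 4.16 times as high in M_BB as in P_Bb (interval 3.55 to 4.90). The genotype step of 0.64 ran against the social form step of -2.69, so the polygyne *SB/SB* library was the lowest of the 3. SINVm1_gene_02300 is a pro-phenol oxidase subunit, whose active form starts melanization in insect defence. It had 161 counts in P_Bb, against 146 in P_BB and 466 in M_BB, with M_BB 2.89 times as high as P_Bb (interval 2.41 to 3.49). SINVm1_gene_01163, a fatty acyl-reductase, belongs to the enzymes that turn fatty acyl groups into fatty alcohols. It had 131 counts in P_Bb, against 115 in P_BB and 282 in M_BB, with M_BB 2.15 times as high as P_Bb (interval 1.74 to 2.67). In these 3 entries both polygyne libraries were low and lay within 2-fold of each other. The study had chosen them as social form genes on cDNA from the same amplifications, sequenced separately, so their direction here is not independent evidence.

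The other lower entries of this abundance have no annotation in the sources used here. SINVm1_gene_10535 had 40.4 normalized counts in P_Bb, against 68.7 in P_BB and 227 in M_BB, which was 5.62 times the P_Bb count (interval 3.96 to 8.08). SINVm1_gene_01130 had 78.9 in P_Bb, against 89.7 in P_BB and 294 in M_BB. SINVm1_gene_05171 had 317 in P_Bb, against 442 in P_BB and 1004 in M_BB. These were the entries beyond 3-fold, beside SINVm1_gene_13864 and the desaturase. SINVm1_gene_07994 (403 in P_Bb, against 459 in P_BB and 952 in M_BB) also had an interval wholly beyond 2-fold, from 2.10 to 2.66. SINVm1_gene_13295, SINVm1_gene_13824, SINVm1_gene_04574 and SINVm1_gene_13844 had social form steps of -1.68, -1.26, -1.15 and -1.41. P_BB was below P_Bb in them, as in the desaturase, but by less. Their genotype steps were 0.36, 0.08, 0.04 and 0.32, against 0.64 in the desaturase. In SINVm1_gene_05600, SINVm1_gene_04240, SINVm1_gene_13997, SINVm1_gene_05968 and XLOC_023534, P_BB lay between the others, with social form steps from -0.97 in SINVm1_gene_04240 and XLOC_023534 to -0.73 in SINVm1_gene_05968. SINVm1_gene_02112 was divided almost evenly, with a genotype step of -0.54 and a social form step of -0.57. SINVm1_gene_10363 had 139 counts in P_Bb, against 276 in P_BB and 305 in M_BB, with a genotype step of -0.99, just short of 2-fold, and a social form step of -0.15.

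The 8 well-counted entries higher in P_Bb were 2.01 to 3.16 times as high as in M_BB and were spread over the steps: 2 had the genotype step alone, 2 the social form step alone and 4 neither. SINVm1_gene_05326, an uncharacterized protein gene in the supergene, had 417 normalized counts in P_Bb, against 185 in P_BB and 132 in M_BB, a ratio of 3.16 (interval 2.60 to 3.84). Its genotype step was 1.17 and its social form step 0.48. XLOC_007352 was the other entry with the genotype step alone, at 257 in P_Bb, against 112 in P_BB and 115 in M_BB. SINVm1_gene_01492 differed by the social form step, with 209 in P_Bb, against 213 in P_BB and 77.3 in M_BB, a ratio of 2.70 (interval 2.09 to 3.53). SINVm1_gene_03647 did so too, with 134 in P_Bb, against 210.4 in P_BB and 60.4 in M_BB, and was highest in P_BB. XLOC_043345 (228 in P_Bb, against 136 in P_BB and 76.3 in M_BB) stepped down evenly, with 0.74 in the genotype step and 0.82 in the social form step. SINVm1_gene_04152, the most abundant of the 8, had 1363 in P_Bb, against 826 in P_BB and 677 in M_BB, a ratio of 2.01 (interval 1.84 to 2.21). SINVm1_gene_04008 and SINVm1_gene_10636 had ratios of 2.17 and 2.08. Only for SINVm1_gene_05326, XLOC_043345 and SINVm1_gene_01492 among the 8 did the interval lie wholly beyond 2-fold.

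**Figure D3:**
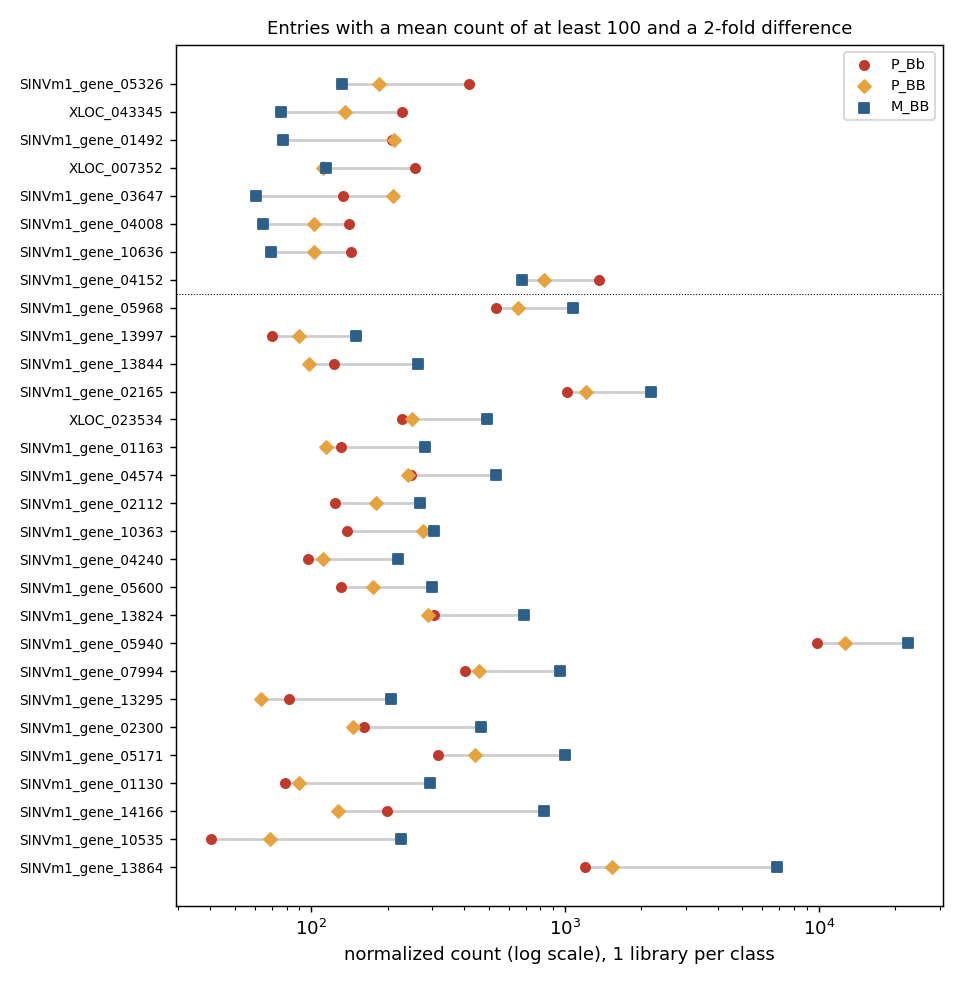
Normalized counts (log axis) of the 29 entries with a mean of at least 100 that were called, in P_Bb (red circles), P_BB (orange diamonds) and M_BB (blue squares), 1 library each. Above the dotted line are the 8 entries higher in P_Bb, below it the 21 lower ones, in which P_BB lies nearer to P_Bb than to M_BB in all but SINVm1_gene_10363.

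Among the weaker entries, the largest differences were near presence and absence. This follows in part from the selection. The filter was a mean over the 3 libraries, so some entries near 0 elsewhere passed it only through the library where they were high. The 10 entries with the largest excess in P_Bb, of those under a mean of 100 with an interval wholly beyond 2-fold, comprised 6 with the genotype step alone, 2 with the social form step alone and 2 with both. The first was XLOC_000436, which carries the number of an entry annotated by the study as a viral lambda-type exonuclease (XLOC numbers can differ between assemblies, so the annotation is uncertain). It had 124 normalized counts in P_Bb, against 6.26 in P_BB and 0 in M_BB, which is at least 45.9-fold higher in P_Bb than in M_BB, computed against a floor of 3 counts in that library. SINVm1_gene_00322 (an entry with a name but no known function) had 96.0 in P_Bb, against 7.30 in P_BB and 3.59 in M_BB. XLOC_001337 had 141.8 in P_Bb, against 4.17 in P_BB and 7.19 in M_BB, and XLOC_043228 had 81.0 in P_Bb, against 2.09 in P_BB and 4.49 in M_BB. In these entries P_Bb stood alone above a low pair. XLOC_012911 showed the other form, with 22.4 in P_Bb, against 35.5 in P_BB and 0 in M_BB, at least 8.31-fold higher in P_Bb than in M_BB. XLOC_034836 had 30.8 in P_Bb, against 11.7 in P_BB and 0 in M_BB. Against the floor of 3 counts it was 11.4-fold higher in P_Bb. This is not a lower bound, because its count of 0 in M_BB was uncertain, as given below.

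The 10 entries with the largest deficit in P_Bb comprised 5 with the social form step alone, 3 with both steps and 2 with the genotype step alone. SINVm1_gene_02188 had 0 normalized counts in P_Bb, against 1.04 in P_BB and 48.5 in M_BB, and was at least 15.2-fold lower in P_Bb than in M_BB. It fell among the entries with both steps only because 1 count in P_BB was set against 0 in P_Bb, so no fold is given for its genotype step. SINVm1_gene_02110 had 3.20 in P_Bb, against 12.5 in P_BB and 129 in M_BB. With 3 reads in P_Bb, M_BB was 40.2 times as high (interval 13.5 to 197). SINVm1_gene_02092 had 5.33 in P_Bb, against 11.5 in P_BB and 59.3 in M_BB. SINVm1_gene_00260 had 18.1 in P_Bb, against 14.6 in P_BB and 126 in M_BB, and XLOC_002097 had 6.40 in P_Bb, against 6.26 in P_BB and 43.1 in M_BB. In all 5 P_BB lay nearer to P_Bb than to M_BB. SINVm1_gene_00089, with 3.19 in P_Bb, against 12.0 in P_BB and 25.2 in M_BB, differed in both steps. SINVm1_gene_09689 had 4.27 in P_Bb, against 20.9 in P_BB and 28.8 in M_BB, with a genotype step of -2.05. None of these entries is annotated in the sources used here.

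In several of these entries the counts themselves were uncertain. RSEM divides reads that match more than 1 entry, and its posterior standard deviation (SD) says how uncertain the division was. That SD was at least 1 count in some library for 18.2% of the 406 called entries, against 14.0% of all entries compared. SINVm1_gene_10898 had 42.8 normalized counts in P_Bb, against 47.5 in P_BB and 0 in M_BB, with posterior SDs of 9.68, 11.9 and 6.51 counts. SINVm1_gene_10902 had 0 in P_Bb, against 0 in P_BB and 48.0 in M_BB, with posterior SDs of 9.02, 11.1 and 9.51. Against the floor of 3 counts, the first was 15.9-fold higher and the second 15.0-fold lower in P_Bb. These folds are not lower bounds, because the posterior SDs of the counts of 0 exceeded the floor. SINVm1_gene_00897, at 37.0 in P_Bb and 0 in both others, had posterior SDs of 11.03, 5.56 and 9.58 counts. XLOC_000832, at 23.6 in P_Bb, against 32.3 in P_BB and 145 in M_BB, had posterior SDs of 41.8, 27.3 and 46.4 counts, larger than its count in P_Bb. In XLOC_034836 they reached 8.34 counts, with 6.2 counts for its 0 in M_BB, which again exceeded the floor. The part of read division in these differences was not tested. For SINVm1_gene_02188, XLOC_012911, XLOC_043228 and XLOC_001337 the posterior SD was 0 in all 3 libraries.

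Of the 6 supergene genes with an official gene identifier in the study's genotype list, 4 were higher in P_Bb with the genotype step alone. The list was chosen on separately sequenced cDNA of the same amplifications as genes that set P_Bb apart, so its direction is not independent evidence. All 6 were compared, and 5 were called, 4 higher and 1 lower in P_Bb, against 4.38% of all entries. The list also holds the supergene entry XLOC_016888, listed as lower in P_Bb. It had 4 expected counts in P_Bb, against 1 in P_BB and 2 in M_BB, too few to be compared. SINVm1_gene_02111, the odorant binding protein gene *SiOBP12*, had 274 normalized counts in P_Bb, against 8.35 in P_BB and 14.4 in M_BB. P_Bb was 19.1 times as high as M_BB (interval 11.5 to 33.9), and its social form step of -0.72 ran against its genotype step of 4.88. SINVm1_gene_05175, annotated as an NADH dehydrogenase, a type of enzyme of mitochondrial respiration, had 148 in P_Bb, against 14.6 in P_BB and 7.19 in M_BB, a ratio of 20.6 (interval 10.2 to 48.7). SINVm1_gene_05144, a coiled-coil domain-containing protein gene, had 161 in P_Bb, against 20.9 in P_BB and 35.9 in M_BB, a ratio of 4.48 (interval 3.14 to 6.52). With SINVm1_gene_05326 above, these 4 had genotype steps from 1.17 to 4.88 and social form steps from -0.76 to 0.93. The remaining compared supergene entries did not share the pattern. SINVm1_gene_05176, a phosphatase gene, had 243 in P_Bb, against 152 in P_BB and 187 in M_BB, a ratio of 1.301 (interval 1.07 to 1.58). SINVm1_gene_13984, a receptor tyrosine kinase gene of the Ror family, had 2.13 in P_Bb, against 16.7 in P_BB and 13.5 in M_BB. This is the reverse of its listed direction, on 2 reads in P_Bb, against 16 in P_BB and 15 in M_BB.

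Over the whole genotype list, 13 of 16 official entries were compared. The listed direction was found in 11, of which 9 were called, while 1 was called in the opposite direction, beside 4.38% of all entries called and 53.3% higher in P_Bb. The genotype step was the larger in the listed direction in 12 of 13, and the median over the 13 was 2.13 for the whole difference, 2.28 for the genotype step and 0.04 for the social form step. Beside the supergene genes, SINVm1_gene_09757 (39.5 in P_Bb, against 7.30 in P_BB and 1.80 in M_BB) had both steps, 2.28 for genotype and 1.57 for social form. Its social form step rests on 2 reads in M_BB, against 7 in P_BB. SINVm1_gene_00321 (39.5 in P_Bb, against 1.04 in P_BB and 7.19 in M_BB) had a genotype step of 4.31 against a social form step of -2.00. Both of its steps rest on 1 read in P_BB, against 37 in P_Bb and 8 in M_BB. In each entry the lowest count lies below the floor of 3 counts, so the sizes of these steps are uncertain. SINVm1_gene_13689 (54.3 in P_Bb, against 24.5 in P_BB and 23.5 in M_BB) had nearly equal *SB/SB* libraries. In the social form list 23 of 26 official entries were compared, and 20 had the listed sign, against 46.7% of all entries lower and 53.3% higher in P_Bb. This list too was chosen on separately sequenced cDNA of the same amplifications, as genes that set M_BB apart. Its signs, calls and steps here are therefore not independent evidence. Of the 20, 4 were called, beside 4.38% of all entries. The median in the listed direction was 0.42 for the whole difference, -0.10 for the genotype step and 0.36 for the social form step. Beside the 3 metabolic entries above, the called one was SINVm1_gene_10721, annotated as the deoxyribonuclease tatdn1. It had 26.7 in P_Bb, against 6.26 in P_BB and 0.899 in M_BB (25 reads, 6 reads and 1 read), a ratio of 29.7 (interval 4.86 to 1218), with a genotype step of 1.93 and a social form step of 1.94.

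**Figure D4:**
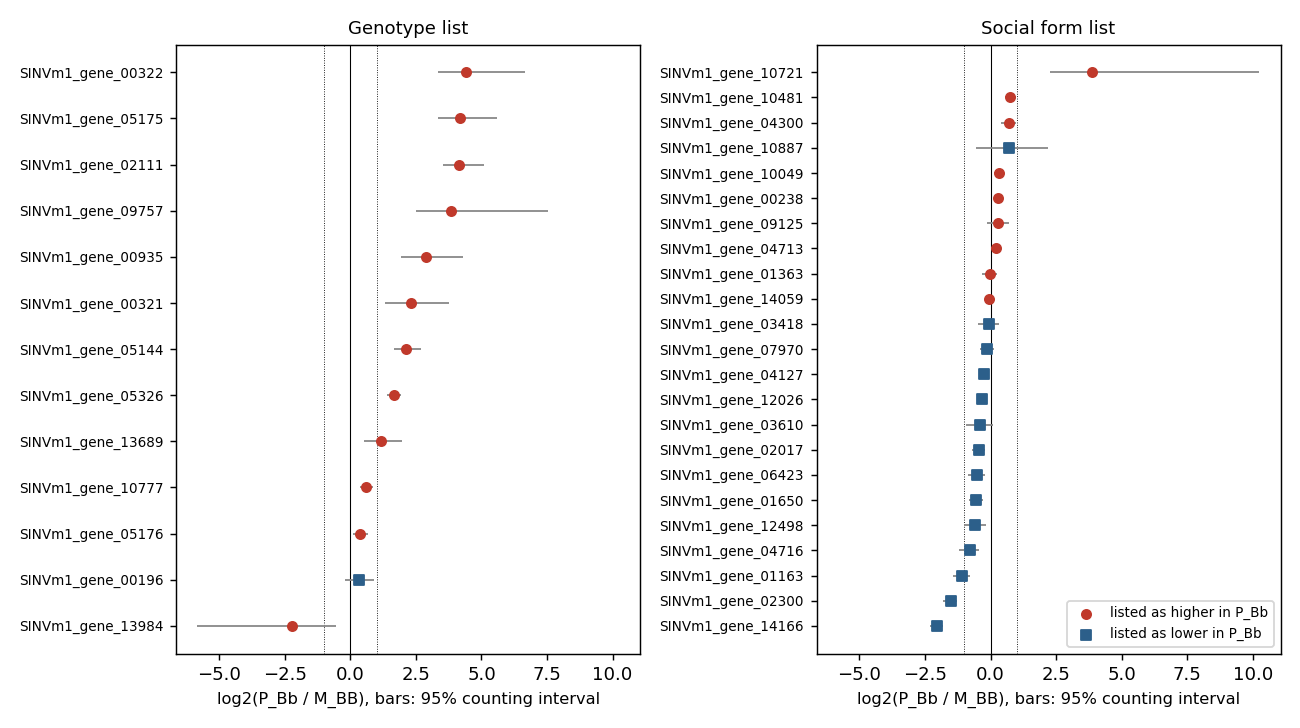
Log2 ratio of P_Bb to M_BB for the compared official entries of the study's genotype list (left, 13 entries) and social form list (right, 23 entries), with 1 count added, and 95% counting intervals of the plain ratio as bars. Red circles were listed as higher and blue squares as lower in P_Bb. Dotted lines mark 2-fold; 10 entries on the left and 4 on the right lie beyond them.

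Genes annotated in these lists as chemical metabolism went both ways. Of 11 official entries 9 were compared, 1 was called higher (the NADH dehydrogenase) and 3 lower (the desaturase, the pro-phenol oxidase and the reductase), beside 2.13% and 2.26% of all entries. The median was -0.42, and the study had chosen these entries as differing between the classes, so the counts are no independent evidence. SINVm1_gene_01650, a glycerol-3-phosphate acyltransferase used in making storage and membrane lipids, was below 2-fold, with 199 in P_Bb, against 236 in P_BB and 291 in M_BB. SINVm1_gene_03610, which makes trehalose phosphate, the precursor of the main insect blood sugar, had 57.6 in P_Bb, against 31.3 in P_BB and 77.3 in M_BB. Its steps of 0.86 and -1.28 largely offset each other. SINVm1_gene_00238, an esterase, had 1357 in P_Bb, against 1225 in P_BB and 1118 in M_BB, and SINVm1_gene_10049, an iduronate sulfatase, had 495 in P_Bb, against 429.9 in P_BB and 394 in M_BB. SINVm1_gene_00401, a cytochrome P450 gene, was too weak to be compared, with 12.2 expected counts in P_Bb, against 2 in P_BB and 0 in M_BB. SINVm1_gene_00676, a fatty acid synthase gene, had 0 in both polygyne libraries and 1 in M_BB.

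The 5 transposable element entries of the lists that could be compared by an official identifier were all on the side of P_Bb, beside 53.3% of all entries. The study had chosen them as differing between the classes, so this is no independent evidence. They were 5 of 8, all of the harbi1 nuclease type, which derives from a DNA transposon. Their differences ran from 0.27 to 2.88 on the log2 scale, and 1 was called, beside 2.13% of all entries called higher. SINVm1_gene_00935 had 57.3 normalized counts in P_Bb, against 2.18 in P_BB and 6.89 in M_BB, with posterior SDs of 4.13, 2.24 and 2.45 counts. SINVm1_gene_10481 had 421 in P_Bb, against 295 in P_BB and 248 in M_BB, and SINVm1_gene_10777 had 320.1 in P_Bb, against 217 in P_BB and 210.4 in M_BB. SINVm1_gene_09125 and SINVm1_gene_00196 were highest in P_BB, with 166 and 81.4 counts there, against 102 and 61.9 in P_Bb and 84.5 and 48.3 in M_BB. Their intervals of the ratio of P_Bb to M_BB held equality (0.902 to 1.63 and 0.865 to 1.88). SINVm1_gene_00196 was listed as lower in P_Bb, the reverse of its sign here. Among the 3 entries too weak to be compared, SINVm1_gene_00166, SINVm1_gene_09325 and SINVm1_gene_10899, the highest expected count was 5.27, in M_BB for SINVm1_gene_10899, which had 1.38 in P_Bb. XLOC_003144, listed as a tc1 transposase, was lower in P_Bb, with 906 normalized counts there, against 1579 in P_BB and 1154 in M_BB, if the XLOC numbers of the list and of the tables mean the same model.

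The odorant receptor entries leaned towards P_Bb. Of 370 compared, 19 (5.14%) were called higher in P_Bb and 3 (0.811%) lower, beside 2.13% and 2.26% of all entries. Receptors were weaker than all entries compared (median mean count 46.3 against 110.2), and weak entries were called more often. At counts of 10 to 20, 13.3% were called higher and 1.67% lower, beside 9.73% and 8.63% of all entries. At 20 to 50 these shares were 7.63% and 1.53%, beside 3.74% and 3.92%. At 50 to 100, 0.877% were called higher, beside 0.773%. The median difference was 0.20 on the log2 scale, beside 0.03 over all entries, and 250 of 370 (67.6%) were higher in P_Bb, beside 53.3% of all entries. The lean came with the social form step, in which the receptor median was 0.27, beside 0.006 over all entries. In that step 71.9% of receptors were higher in P_BB than in M_BB, beside 51.0% of all entries. The genotype step had a receptor median of -0.04, beside 0.03 over all entries. Receptors summed to 26949 normalized counts in P_Bb, against 27910 in P_BB and 24356 in M_BB. The called receptors were weak, and 12 of the 22 had a posterior SD of at least 1 count in some library. None of the 65 receptors with a mean of at least 100 was called, although 51 of the 64 between 100 and 500 counts (79.7%) were higher in P_Bb.

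The 19 receptors called higher in P_Bb ranged from 15.2 to 137 normalized counts in P_Bb, and from 3.32 to 67.3 in M_BB. For 16 of them the interval of the ratio excluded equality. SiOR17 had 24.1 in P_Bb, against 33.3 in P_BB and 3.32 in M_BB, a ratio of 7.26 (interval 2.33 to 27.1), with posterior SDs of 3.41, 3.47 and 2.11 counts. SiOR436 had 58.7 in P_Bb, against 53.1 in P_BB and 10.1 in M_BB, a ratio of 5.78 (interval 3.07 to 12.6), with posterior SDs of 9.81, 10.7 and 8.57 counts. In both entries M_BB alone was low, and these were the only 2 of the 19 with an interval wholly beyond 2-fold. SiOR400 (18.1 in P_Bb, against 11.5 in P_BB and 4.49 in M_BB) reached a ratio of 4.03 (interval 1.43 to 14.0) with a posterior SD of 0. SiOR87 (19.6 in P_Bb, against 11.7 in P_BB and 3.55 in M_BB) and SiOR327 (15.2 in P_Bb, against 10.8 in P_BB and 4.80 in M_BB) stepped down in the same order. Their posterior SDs were 3.38, 3.74 and 2.06 counts in SiOR87 and 1.66, 0.91 and 1.12 counts in SiOR327. SiOR431 was the most abundant, with 137 in P_Bb, against 94.0 in P_BB and 67.3 in M_BB, a ratio of 2.03 (interval 1.51 to 2.73). The social form step alone was 2-fold in 8 of the 19 (SiOR17, SiOR436, SiOR87, SiOR400, SiOR327, SiOR42, SiOR443 and SiOR77), and the genotype step alone in SiOR49 and SiOR425. SiOR49 had 30.9 in P_Bb, against 11.5 in P_BB and 13.5 in M_BB, and SiOR425 had 17.2 in P_Bb, against 6.58 in P_BB and 6.30 in M_BB. The remaining 9 (SiOR183, SiOR155, SiOR445, SiOR107, SiOR127, SiOR466, SiOR299, SiOR345 and SiOR431) had neither step at 2-fold and ratios from 2.03 to 2.73.

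The 3 receptors called lower in P_Bb differed chiefly by the genotype step. SiOR2 had 0 normalized counts in P_Bb, against 26.9 in P_BB and 35.0 in M_BB, with posterior SDs of 4.17, 3.62 and 4.02 counts. Against the floor of 3 counts it was 10.95-fold lower in P_Bb than in M_BB. This is not a lower bound, because the posterior SD of its P_Bb count exceeded the floor. SiOR401 had 11.7 in P_Bb, against 36.5 in P_BB and 30.6 in M_BB, so M_BB was 2.60 times as high (interval 1.29 to 5.70). SiOR269 had 8.28 in P_Bb, against 16.2 in P_BB and 19.2 in M_BB, with an interval that reached equality (0.941 to 5.77). In SiOR2 and SiOR401 both *SB/SB* libraries were high.

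**Figure D5:**
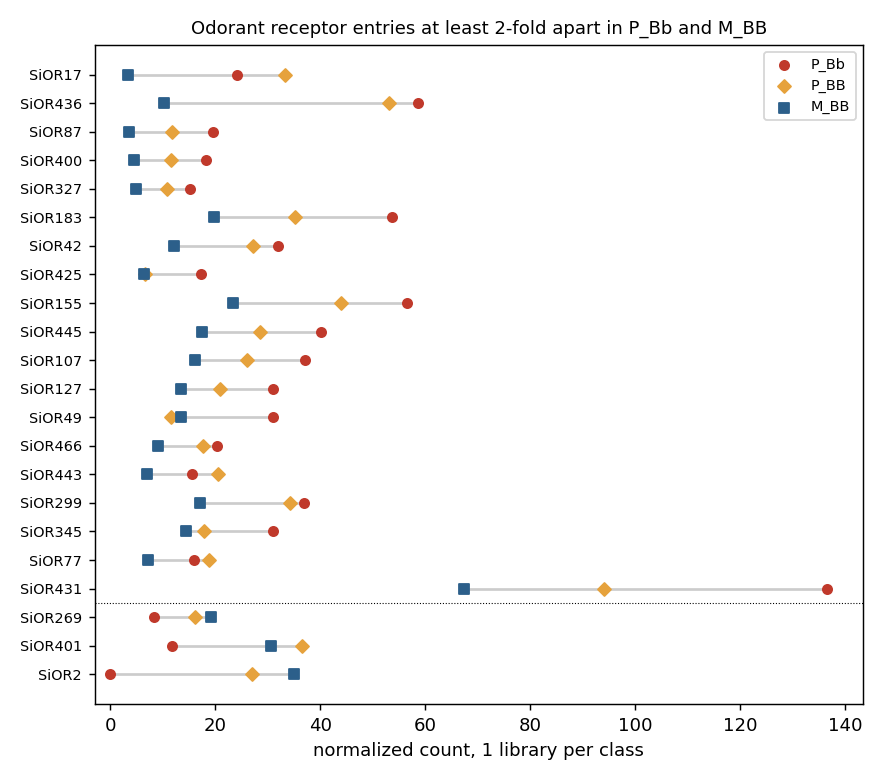
Normalized counts of the 22 odorant receptor entries called between P_Bb and M_BB, in P_Bb (red circles), P_BB (orange diamonds) and M_BB (blue squares), 1 library each, ordered by log2 ratio. The 19 above the dotted line were higher in P_Bb, with SiOR431 the highest at 137 counts, and in the 3 below it SiOR2 stood at 0 in P_Bb.

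The 5 receptors with the highest TPM were not called. SiOR1_co, with a TPM of 468 in P_Bb, against 656 in P_BB and 657 in M_BB, was the one compared receptor above 500 counts, with a log2 difference of -0.45. Its posterior SDs of 719, 1244 and 777 counts were a large part of its 2108, 2958 and 3418 expected counts. SiOR292 had a TPM of 98.9 in P_Bb, against 105 in P_BB and 62.9 in M_BB, the largest excess of the 5, with a count ratio of 1.61 (interval 1.34 to 1.93). SiOR251, SiOR211 and SiOR444 had count ratios of 0.949, 1.11 and 1.16, whose intervals all held equality. SiOR463, a receptor that the study treats in detail (named here outside the rule for named genes), had 41.6 normalized counts in P_Bb, against 52.1 in P_BB and 43.1 in M_BB. The study's list gives SiOR463, a receptor gene of the supergene, under the number XLOC_016888. The entry of that number had 4 expected counts in P_Bb, against 1 in P_BB and 2 in M_BB, too few to be compared. Since XLOC numbers can differ between assemblies, whether it holds the same gene as the SiOR463 entry could not be checked.

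The kinds of entry differed in their calls. Official genes (SINVm1_gene) were called in 301 of 7897 (3.81%), 120 higher (1.52%) and 181 lower (2.29%) in P_Bb. Models of the transcript assembly (XLOC) were called in 83 of 993 (8.36%), 58 higher (5.84%) and 25 lower (2.52%). Over all entries the shares were 4.38% called, 2.13% higher and 2.26% lower. The median mean count was 20.2 in the called official genes and 15.4 in the called XLOC models, against 110.2 over all entries compared. The XLOC models had a median social form step of 0.15 and a median genotype step of -0.06. Over all entries compared these medians were 0.006 and 0.03. In the XLOC models 66.0% of entries were higher in P_BB than in M_BB, beside 71.9% of the receptors, 48.1% of official genes and 51.0% of all entries. The part of abundance in these shares was not tested.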

How the data were processed

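The 3 antennal RNA-Seq libraries were assigned to classes by their labelled genotype and colony type. Read pairs were mapped by the authors with Bowtie2 and counted with RSEM against a transcript reference of 15589 official genes, 3641 XLOC models and 473 receptor models. Tool versions and strand settings for these libraries are not given in the sources used here. The expected counts were deposited without normalization. TPM values, likewise deposited, are scaled by RSEM for length and depth. The posterior SDs of the counts, also deposited, belong to RSEM's read division (in counts, another kind of value). A deposited file of the authors' pattern probabilities holds their own comparison and was not used. The transcript models could not be paired with the expression identifiers, so positions were not used. A match to RefSeq genes (UNIL_Sinv_3.0) found 0 of the identifiers, so entries keep the names in the tables, and functions come from the study's gene list.

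Each library was scaled by dividing its counts by the 75th percentile over all entries (factors 0.938 for P_Bb, 0.958 for P_BB and 1.11 for M_BB, geometric mean 1). Entries whose mean reached 10 over the 3 libraries were analysed on log2(normalized count + 1), which understates differences of weak entries, and called at 2-fold. A step was counted where it reached 2-fold in the direction of the whole difference. Plain ratios used no added count, and Clopper-Pearson intervals used counts rounded to whole numbers. Since amplified reads without molecular identifiers are not independent molecules, intervals and floors hold for counting error alone. Against a library at 0, the fold was computed with 3 counts in that library. Named entries were those with a mean of at least 100 and a call, per direction the 10 others with the largest difference and an interval beyond 2-fold, the official entries of the study's list in the supergene, in the chemical metabolism, odorant perception or transposable element classes or called, and the called and the 5 most abundant receptors. The members and lists were chosen with earlier results of these data known. Python 3 with pandas, numpy and scipy was used, and edgeR and DESeq2 gave alternative size factors only. The scripts were tested on simulated data. Alternatives were other size factors, the deposited TPM, added counts of 0.5 and 5, other filters, thresholds of 1.5-fold and 4-fold, the interval, official genes only, certain read division only, and XLOC identifiers in the lists.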

Additional observations from a re-analysis of the deposited data

How the results depend on the processing

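The count of calls depended chiefly on weak entries, and the order of the step classes turned round in 2 alternatives that let more of them in. The main counts were 406 calls (197 higher and 209 lower in P_Bb), of which 144 had the social form step alone, 94 the genotype step alone, 12 both and 156 neither. With the deposited TPM (mean at least 1) there were 1026 calls (487 and 539), with 362, 393, 34 and 237 in the same classes, so that the genotype step alone became the more frequent, though measure and filter changed together (11218 entries compared). Without a filter there were 2479 (1421 and 1058), with 946, 1070, 92 and 371, the genotype step alone again ahead, and the split of higher against lower moved from 48.5% to 57.3% higher. At a mean of at least 100 there were 29 (8 and 21), with 14, 2, 0 and 13. With 5 added counts there were 260 (123 and 137), with 86, 57 and 5 in the classes that have a step. At 1.5-fold there were 1319 (658 and 661), with 548, 366, 52 and 353, and at 4-fold 66 (37 and 29), with 27, 23, 1 and 15. Among official genes only, 120 were higher and 181 lower (39.9% higher) and 6 had both steps. TMM and median-of-ratios size factors, library totals, an added count of 0.5, a filter on P_Bb and M_BB only, the interval and certain read division (posterior SD under 1 count in all 3 libraries) left these counts within 1.5 times. TMM shared 393 of the 406 called entries, the filter on P_Bb and M_BB 375, and the TPM 284.

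Receptors called higher (19) numbered 9 with 5 added counts, 40 without a filter, 0 at a mean of at least 100, 62 at 1.5-fold, 3 at 4-fold and 9 with certain read division. Receptors called lower (3) numbered 7 by TPM, 15 without a filter, 0 at a mean of at least 100, 11 at 1.5-fold, 1 at 4-fold and 1 with certain read division. The receptor median of 0.20 was 0.15 by TPM and stayed positive under every alternative run. Of the genotype list 3 of 3 had the listed direction at a mean of at least 100, and 19 of 22 with XLOC identifiers, if those numbers mean the same models in the list and in the tables, which could not be checked. Of 91 named entries, 10 left their counting interval under at least 1 alternative, by 5 added counts or TPM, and none changed direction. The causes were not tested. No paired analysis was possible because there is only 1 library of each class, and none can be left out. Positions of called genes were not analysed. Depth limits the weak calls: at mean counts of 10 to 20 the interval excluded equality in 157 of 217, and in 127 of 127 at 20 to 50.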
